A study of Mus musculus with 6 samples.

Results

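The genes described here make, inactivate or sense prostaglandins: the cyclooxygenase genes Ptgs1 and Ptgs2, the terminal synthase genes Ptges and Ptgis, the degrading enzyme gene Hpgd, and the receptor genes Ptgfr, Ptger1, Ptger2, Ptger3 and Ptger4. They are 10 of the 24959 genes in the table, named as a list because Ptgfr was higher in the knockout libraries. The members were thus chosen by the level of Ptgfr in the same comparison that is given here, and their differences between the groups are a description. Of the 10 members, 9 had enough reads to be tested and Ptger2 did not. RNA from mouse samples labelled dental epithelial cells, taken at postnatal day 0, was sequenced in 6 libraries. The 3 controls are titled Control with the genotype WT, and the 3 knockouts are titled cKO with the genotype PKM knockout, a conditional deletion of Pkm, which encodes the M-type pyruvate kinases of glycolysis. No source used here gives the Cre driver, the deleted exons, the strain or whether a sample pooled animals. The samples are called biological replicates, and the p-values measure the spread between them.

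Prostaglandins are short-lived lipid signals. Cyclooxygenases convert arachidonic acid released from membranes into a common precursor, terminal synthases turn it into prostaglandin E, prostacyclin and other forms, and each form acts near its source on its own G protein-coupled receptors. The receptor encoded by Ptgfr binds prostaglandin F and signals mainly through calcium. Of the receptors for prostaglandin E, those of Ptger2 and Ptger4 raise cyclic AMP, that of Ptger3 mainly lowers it, and that of Ptger1 acts through calcium. In teeth and bone, prostaglandin E is known for its part in inflammation and in the formation of osteoclasts.

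Total counts per library ranged from 30588350 to 39415700. Pkm stood at 1049 to 1281 CPM (read counts relative to a common scaled library size) in controls and at 309 to 395 CPM in the knockouts. Dental epithelial markers such as Krt5 and Krt14 were present in all 6 libraries, and so were the mesenchymal collagen genes Col1a1 and Col1a2. Skeletal muscle markers, 6 genes, summed to 3.39 to 4.49 CPM among controls and to 73.0, 15.4 and 2892 CPM in cKO replicates 1 to 3, so cKO replicate 3 stood apart. Between the groups, 88 of 15930 tested genes were called at an adjusted p under 0.05 by edgeR's quasi-likelihood test, which is 0.552%: 55 were higher and 33 lower in the knockouts. With upper-quartile scaling the split was 57 higher and 18 lower.

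The stretches before the start of 3 members whose groups did not overlap are shown here, since these genes were the members with higher levels in every cKO library for which a promoter entry was found. RefSeq's promoter table, on build GRCm38.p6, had an entry for 8 of the 10 members, Ptgis and Ptger1 being the others. The deposited counts are on mm39, so the coordinates apply to GRCm38.p6 only. For Ptger3 (chr3:157566626-157566875, plus strand) and Ptgs1 (chr2:36230176-36230425, plus strand) the 250 bases before the start are printed. For Ptgfr (chr3:151837631-151837778, minus strand) the 148 bases farthest from the start are printed, because the next 102 bases lie in an annotated exon of Ptgfr itself. All 250 bases of its window, those printed included, lie in an exon of Gm43618, a gene model of unproven transcription on the opposite strand. Capitals mark GC boxes, GGGCGG on either strand.
Ptgfr: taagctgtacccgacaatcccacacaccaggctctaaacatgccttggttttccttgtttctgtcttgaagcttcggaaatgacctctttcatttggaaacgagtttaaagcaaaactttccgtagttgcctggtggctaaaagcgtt
Ptger3: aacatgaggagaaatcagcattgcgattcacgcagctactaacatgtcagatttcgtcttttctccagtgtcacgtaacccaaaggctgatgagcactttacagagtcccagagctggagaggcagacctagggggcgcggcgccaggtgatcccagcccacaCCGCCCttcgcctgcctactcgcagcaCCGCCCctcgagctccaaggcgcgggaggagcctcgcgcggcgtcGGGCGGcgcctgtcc
Ptgs1: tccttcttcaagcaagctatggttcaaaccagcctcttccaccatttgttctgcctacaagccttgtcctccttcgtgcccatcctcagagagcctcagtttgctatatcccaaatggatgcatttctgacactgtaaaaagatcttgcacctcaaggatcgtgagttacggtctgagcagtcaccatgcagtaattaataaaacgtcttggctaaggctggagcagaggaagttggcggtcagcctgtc
In the full window of 250 bases, GC boxes were found for 6 of the 8 members, against 32.7% of 32851 promoters of the same length. The windows of these 6 were 52% (Ptgfr) to 66.8% (Ptger4) G or C, beside a median of 52.4% over all promoters, so the counts are not like for like. Ptger3 had 3 GC boxes, beginning 87, 60 and 15 bases before the start, and Ptgfr had 1, beginning 30 bases before the start in the stretch that is not printed. Ptgs1 had no match to any of the 7 motifs searched. A TATA box (TATAAA, in 12.4% of all promoters), an E-box (CACGTG, in 6.02%), the core of a cyclic AMP response element (TGACGT, in 6.47%) and an AP-1 site (TGANTCA, in 6.75%) were found in 0 of the 8 members. A CCAAT box (CCAAT, in 33.8%) was found before Ptger2 and Ptger4, and a TEAD site (GGAATG, in 12.6%) before Ptges. These matches describe the letters of the windows on both strands, where matches were allowed to overlap.

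Per kilobase of transcript, Ptges, which encodes the inducible prostaglandin E synthase, had the highest level of the 10 members in controls, 5.63 ± 2.05 CPM per kb (SD, n = 3). Ptgis (1.48 ± 0.366 CPM per kb), Ptger4 (1.43 ± 0.409), Hpgd (1.42 ± 0.262) and Ptgs1 (1.21 ± 0.217) followed, and each of these overlapped the next in its range over libraries. Ptger1 came below them at 0.704 ± 0.123 CPM per kb and Ptgfr below that at 0.415 ± 0.103. Ptger3, Ptgs2 and Ptger2 were lowest, at 0.142 ± 0.0579, 0.0881 ± 0.0918 and 0.0356 ± 0.0118 CPM per kb. In knockout libraries Ptges was again first (6.48 ± 1.73 CPM per kb), then Ptgis (5.89 ± 2.71) and Ptgfr (4.03 ± 2.59), and the ranges of these 3 genes overlapped. With coding length in place of transcript length, Ptges stayed first in both groups, while Ptger4 came next in controls and Ptgfr next in the knockouts.

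The cyclooxygenases that start the pathway were low, and most of their transcripts came from Ptgs1, the constitutive form. Ptgs1 (NCBI gene 19224) stood at 4.03, 3.60 and 2.80 CPM in control replicates 1 to 3 and at 4.43, 5.96 and 9.98 CPM in cKO replicates 1 to 3. The groups did not overlap, but cKO replicate 1 lay close to control replicate 1. The log2 fold change was 0.97 (SE 0.361), and without cKO replicate 3 it was 0.59 (SE 0.323). Ptgs2, the form induced by inflammation and growth signals, had 9, 33 and 3 reads in controls and 13, 3 and 18 reads in the knockouts. Its highest library was a control and the groups overlapped fully (log2 change -0.30 ± 0.882 SE), a sign that turned with limma-voom, with the replicate block and without control replicate 2 or cKO replicate 2. An exact Poisson interval (95%) on the 33 reads ran from 22.7 to 46.3 and on the 3 reads from 0.619 to 8.77, for counting error only. Per kilobase, Ptgs1 made up 93.7% ± 6.14 of the summed cyclooxygenase level in controls and 96.8% ± 2.43 in the knockouts. Control replicate 2, with the most Ptgs2 reads, also had the highest levels of the immediate early genes Fos (43.1 CPM, against 9.13 to 12.9 CPM elsewhere) and Egr1 (66.8 CPM, against 12.7 to 30.5 CPM). Their part in the Ptgs2 value was not tested.

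Of the 2 terminal synthases among the members, Ptges overlapped between the groups and Ptgis did not. Ptges (NCBI gene 64292) stood at 14.3, 28.8 and 18.4 CPM among controls and at 23.2, 30.1 and 17.6 CPM in the knockouts. Replicate 2 was highest in each group and the groups overlapped (log2 change 0.20 ± 0.290 SE), with a value near 0 without control replicate 1 or cKO replicate 2. Ptgis (NCBI gene 19223), the prostacyclin synthase gene, which is typical of vessel walls and stromal cells, stood at 2.45, 3.96 and 2.93 CPM among controls. Its cKO values were 14.7, 5.90 and 16.6 CPM. Every cKO library was above every control, with cKO replicate 2 nearest to them. The mean went from 3.11 ± 0.772 to 12.4 ± 5.71 CPM, a log2 change of 1.99 (SE 0.397), and of 1.74 (SE 0.404) without cKO replicate 3. Ptgis shares 156 of its 2288 exon bases with 1110018N20Rik on the opposite strand. No source used here gives the strand setting of the counting, and how reads in that share of its length were assigned is not known.

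Hpgd (NCBI gene 15446), whose product inactivates prostaglandins inside cells, stood at 1.91, 2.77 and 2.49 CPM among controls and at 6.17, 2.59 and 6.08 CPM in the knockouts. The values of cKO replicates 1 and 3 were above all controls, and that of cKO replicate 2 was among them. The log2 fold change was 1.05 (SE 0.405).

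Ptgfr (NCBI gene 19220), the gene for which the list was chosen, had 129, 98 and 85 reads in control replicates 1 to 3 and 741, 382 and 1813 reads in cKO replicates 1 to 3. In CPM these were 3.51, 2.54 and 2.21 against 23.9, 11.1 and 45.0. The lowest cKO library was above the highest control by more than the spread of the controls, and the knockout libraries differed among themselves more than the controls did. The mean went from 2.75 ± 0.679 to 26.7 ± 17.1 CPM, 9.70 times higher, with a log2 fold change, cKO over control, of 3.28 (SE 0.503), the 117th highest of the tested genes. It was the 1 member called by edgeR. The call ended without control replicate 1, 2 or 3 (log2 fold change 3.48, 3.22 and 3.14). In each of these settings edgeR called 0 genes over the whole table, Pkm included. Without cKO replicate 3 the log2 fold change of Ptgfr was 2.68 (SE 0.360).

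The other receptors went different ways. Ptger3 (NCBI gene 19218) had few reads, 17, 10 and 24 in controls and 33, 46 and 67 in the knockouts, or 0.463, 0.259 and 0.623 CPM against 1.07, 1.34 and 1.66 CPM. The groups did not overlap (log2 change 1.59 ± 0.514 SE). Ptger4 (NCBI gene 19219), the most abundant receptor of the list per length in controls, stood at 6.10, 3.39 and 4.67 CPM among controls and at 4.75, 5.73 and 2.61 CPM in the knockouts. These values were intermingled (log2 change -0.12 ± 0.380 SE), and the sign turned without control replicate 1 or cKO replicate 3. Ptger2 had 4 to 7 reads in every library, too few to test.

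Ptger1 (NCBI gene 19216) stood at 2.83, 3.13 and 3.94 CPM among controls and at 1.78, 7.91 and 8.81 CPM in the knockouts. The values of cKO replicates 2 and 3 were above all controls and that of cKO replicate 1 below all of them (log2 change 0.90 ± 0.517 SE). Without cKO replicate 1, the library below all controls, the log2 change was 1.34 (SE 0.310) and Ptger1 was called by edgeR (adjusted p 0.0469). In that setting edgeR called 640 genes over the whole table, beside 88 with all libraries. Ptger1 was called in no other setting. With no strand setting given, the level of Ptger1 is uncertain.

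**Figure D1:**
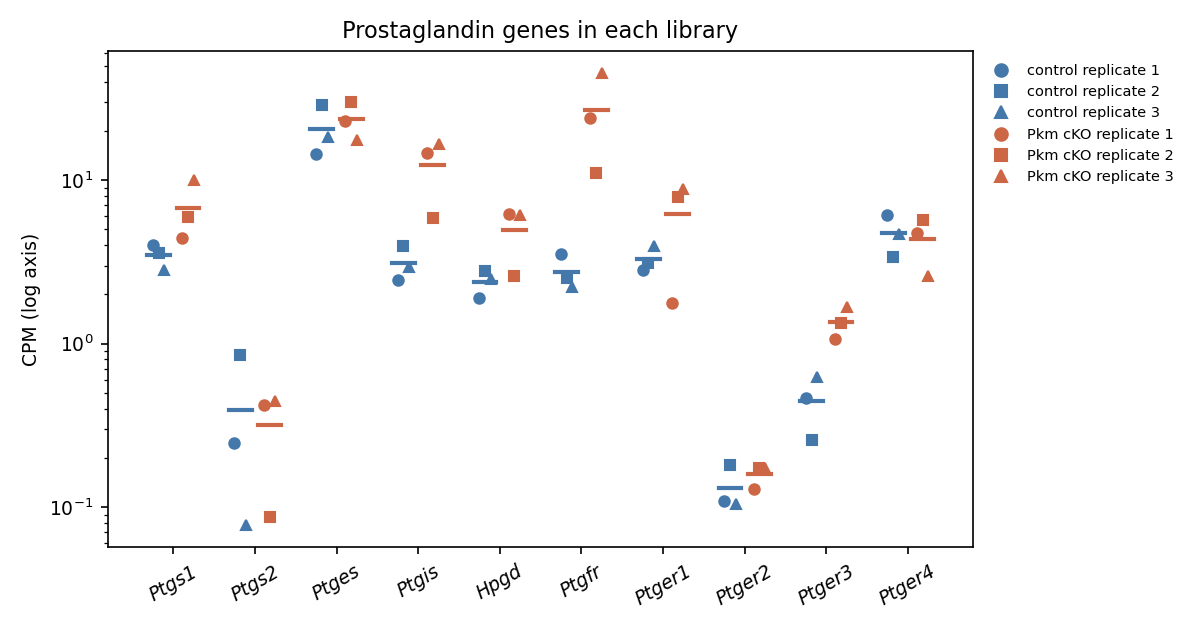
Level of each of the 10 members in CPM (log axis) in the 6 libraries, blue for control and orange for Pkm cKO, with the replicate number as the marker shape and the group mean as a bar. The 3 cKO values of Ptgfr, 11.1 to 45.0 CPM, lie above the 3 control values, 2.21 to 3.51 CPM, while for Ptges and Ptger4 the groups overlap.

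In all, 4 of the 9 tested members (Ptgfr, Ptgis, Ptger3 and Ptgs1) had groups that did not overlap with knockout libraries higher, and 0 had knockout libraries lower. Over all tested genes these shares were 11.2% and 12.2%, or 23.3% in either direction. The call rate over all genes was 0.345% for higher genes, and 1 of the 9 members was called. Since the list was drawn up around a gene that was higher in this comparison, nothing further is read from these counts. The median log2 fold change of the 9 members was 0.97, beside 0.0068 for all tested genes.

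The receptor genes were next set side by side per kilobase of transcript, with the 4 further prostanoid receptor genes Ptgdr, Ptgdr2, Ptgir and Tbxa2r. In controls Ptger4 gave 42.7% ± 4.82 of the summed level of the 9 receptor genes, Ptger1 21.9% ± 5.31, the thromboxane receptor gene Tbxa2r 15.1% ± 1.19 and Ptgfr 12.7% ± 2.60. In knockout libraries Ptgfr gave 59.6%, 23.9% and 62.6% in replicates 1 to 3, against 13.9%, 14.5% and 9.72% in controls. Its mean share was 12.7% in controls and 48.7% ± 21.5 in the knockouts, and with coding lengths it was 24.8% and 65.1%. Ptger4 gave 18.5% ± 9.78 in the knockouts, from 23.7% and 24.7% in replicates 1 and 2 to 7.25% in replicate 3. Its level per kilobase was 1.43 ± 0.409 CPM among controls and 1.32 ± 0.482 CPM in the knockouts, so its share was lower while its level overlapped between the groups. With coding lengths its share was 31.5% in controls and 10.2% in the knockouts. With Ptger1 left out, Ptgfr gave 16.3% ± 3.29 in controls and 56.9% ± 22.8 in the knockouts. The prostaglandin D receptor gene Ptgdr had 0 reads in the controls and at most 1 read in a cKO library. Ptgdr2 never exceeded 3 reads, and the prostacyclin receptor gene Ptgir had 4 to 9 reads in controls and 0, 3 and 10 in the knockouts.

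**Figure D2:**
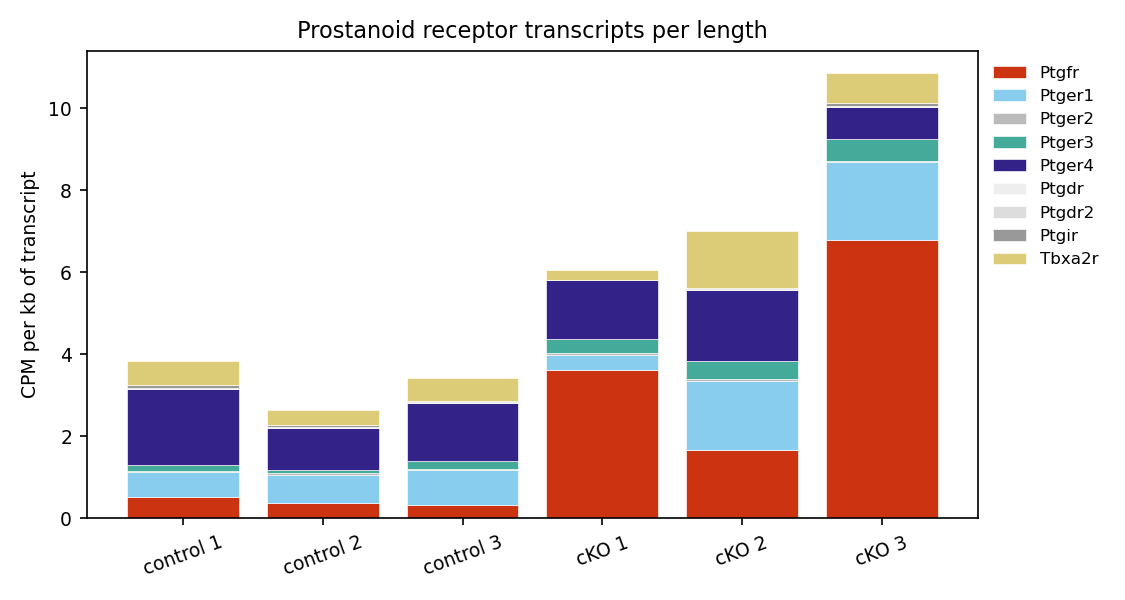
Stacked levels of the 9 prostanoid receptor genes in CPM per kb of transcript for each library, with Ptgfr (red) at the base. The Ptgfr segment is 0.333 to 0.530 CPM per kb high in controls and 3.61, 1.68 and 6.80 CPM per kb in cKO replicates 1 to 3, and the grey segments of Ptger2, Ptgdr, Ptgdr2 and Ptgir are barely visible.

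Other genes of the pathway were taken from 8 lists, 112 genes in all, of which 111 were in the table and 96 were tested. None of the 96 passed edgeR's test over all genes, where 0.552% of tested genes did. At an unadjusted p under 0.05 there were 20, beside 17.5% of all tested genes. Control and knockout values were fully separated in 14 genes with the knockouts higher and in 8 with them lower, and overlapped in 74. Full separation in either direction was seen in 23.3% of all tested genes, so it does not by itself set the genes named below apart. Of the 96, 49 had a log2 fold change above 0 and 47 below 0, with a median of 0.021. DESeq2 called 11 of them, 8 higher and 3 lower, where it called 1118 genes over the whole table, 688 higher and 430 lower. With limma-voom 0 of them were called (20 at an unadjusted p under 0.05), beside 2 genes over the whole table (2741 at an unadjusted p under 0.05).

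Among genes that supply arachidonic acid, 16 were tested, 7 above 0 and 9 below 0 (median log2 fold change -0.05). Mgll, whose lipase frees arachidonic acid from an endocannabinoid, had the lowest p, with 37.8, 25.6 and 27.5 CPM among controls and 16.1, 16.5 and 21.8 CPM in the knockouts (log2 change -0.74 ± 0.219 SE, adjusted p by edgeR 0.133). Its groups did not overlap, and it passed with DESeq2 (adjusted p 0.0341). Pla2g4a, the cytosolic phospholipase that releases arachidonic acid, stood at 7.97 to 12.3 CPM among controls and at 8.56, 11.9 and 22.8 CPM in the knockouts (log2 change 0.60 ± 0.357 SE, adjusted p by edgeR 0.427). Of the other 2 with the lowest p, the secreted phospholipase gene Pla2g2f had a log2 change of -0.77 (SE 0.440) and Pla2g4d one of 1.62 (SE 0.700) at under 1 CPM in every library.

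Of the 8 tested genes for other terminal enzymes, 7 were above 0 (median 0.25) and the groups overlapped for all 8. The largest difference, in Akr1c18, an aldo-keto reductase gene, was between 0.181 to 0.572 CPM and 0.407 to 1.81 CPM (log2 change 1.55 ± 0.669 SE). Of the further prostaglandin E synthase genes, Ptges2 had a log2 change of 0.21 (SE 0.213). Ptges3, which encodes the cytosolic form, one that also serves as a co-chaperone, had one of -0.05 (SE 0.156) and, per kilobase, was the most abundant of 7 terminal synthase genes in both groups (Ptges, Ptgis, Ptges2, Ptges3, Ptgds, Hpgds and Tbxas1), with 79.3% of their summed level in controls and 70.1% in the knockouts. It was chosen for mention after its values were seen. Prxl2b, whose product makes prostaglandin F, had a log2 change of 0.29 (SE 0.285, adjusted p by edgeR 0.643), with 6.54 to 8.16 CPM among controls and 6.72 to 12.2 CPM in the knockouts. Hpgds, a prostaglandin D synthase gene of immune cells, had one of 0.51 (SE 0.521). Tbxa2r, the 1 tested gene among the other receptors, had a log2 change of 0.66 (SE 0.598), which was -0.019 without cKO replicate 2.

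For transport and inactivation, 6 genes were tested, 2 above 0 and 4 below 0 (median -0.35). Ptgr1, which encodes a reductase that inactivates prostaglandins and leukotriene B, stood at 7.66 to 8.64 CPM among controls and at 13.3, 10.8 and 14.6 CPM in the knockouts. Its groups did not overlap (log2 change 0.68 ± 0.223 SE, adjusted p by edgeR 0.166). Its relative Ptgr2 went the other way, from 13.4 to 17.6 CPM among controls to 11.0 to 12.4 CPM in the knockouts (log2 change -0.46 ± 0.208 SE, adjusted p by edgeR 0.287). The exporter gene Abcc4 (log2 change -0.44 ± 0.222 SE) and the transporter gene Slco3a1 (-0.73, SE 0.335) did not pass either, and the main uptake transporter gene Slco2a1, chosen for mention after its values were seen, stood at 20.5 to 30.3 CPM and 20.9 to 31.6 CPM.

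The machinery that couples the receptors to calcium and cyclic AMP was measured in 24 genes, 11 above 0 and 13 below 0 (median -0.06). Itpr3, a calcium release channel of the endoplasmic reticulum, had the lowest p, with 939, 759 and 650 CPM among controls and 536, 432 and 310 CPM in the knockouts (log2 change -0.88 ± 0.218 SE, adjusted p by edgeR 0.0973). Each cKO library was below each control. The adenylyl cyclase genes Adcy5 (log2 change 1.50 ± 0.379 SE, adjusted p by edgeR 0.0997) and Adcy2 (-0.74, SE 0.194, adjusted p by edgeR 0.106) went in opposite directions without overlap of the groups. Plcb2, a phospholipase C gene of blood cells, stood at 0.817 to 1.19 CPM among controls and 2.24 to 2.81 CPM in the knockouts (log2 change 1.38 ± 0.398 SE).

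Of 16 tested genes known to be induced by prostaglandin receptors, 8 were above 0 and 8 below 0 (median 0.12). Tnfsf11, which encodes the osteoclast-forming ligand RANKL, had the lowest p. It stood at 0.463, 0.699 and 1.84 CPM among controls and at 7.24, 2.59 and 8.42 CPM in the knockouts, with the groups apart and cKO replicate 2 the nearest to the controls (log2 change 2.60 ± 0.612 SE, adjusted p by edgeR 0.0889). It was called without a filter on low counts, with the replicate block and with DESeq2. In these settings 518, 708 and 1118 genes were called over the whole table. Itpr3 and Adcy2 were among the other pathway genes called in each of them. Rcan1, a calcineurin inhibitor gene induced by calcium signals, stood at 57.7 to 63.1 CPM among controls and at 44.2 to 46.2 CPM in the knockouts (log2 change -0.43 ± 0.142 SE, adjusted p by edgeR 0.168). Pde4d, a cyclic AMP phosphodiesterase gene, went from 11.3 to 16.0 CPM among controls to 17.1 to 26.6 CPM in the knockouts (log2 change 0.64 ± 0.232 SE, adjusted p by edgeR 0.204). Fos had a log2 change of -1.05 (SE 0.520), with control replicate 2 far above the other 5 libraries.

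Among the inducers and brakes of Ptgs2, 12 were tested, 7 above 0 and 5 below 0 (median 0.25). The glucocorticoid-induced gene Tsc22d3 (26.0 to 40.5 CPM among controls and 41.0 to 80.0 CPM in the knockouts), the annexin gene Anxa1 (64.6 to 102 CPM and 103 to 220 CPM), the tumor necrosis factor receptor gene Tnfrsf1a (70.0 to 72.7 CPM and 85.3 to 105 CPM) and the NF-kappaB subunit gene Rela (61.6 to 64.5 CPM and 74.0 to 99.3 CPM) had the lowest p. In each the groups did not overlap, and their edgeR adjusted p ran from 0.150 to 0.220. Values of the other 8 tested genes in this list overlapped. The cytokine genes Il1a, Il1b and Tnf were too low to test.

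**Figure D3:**
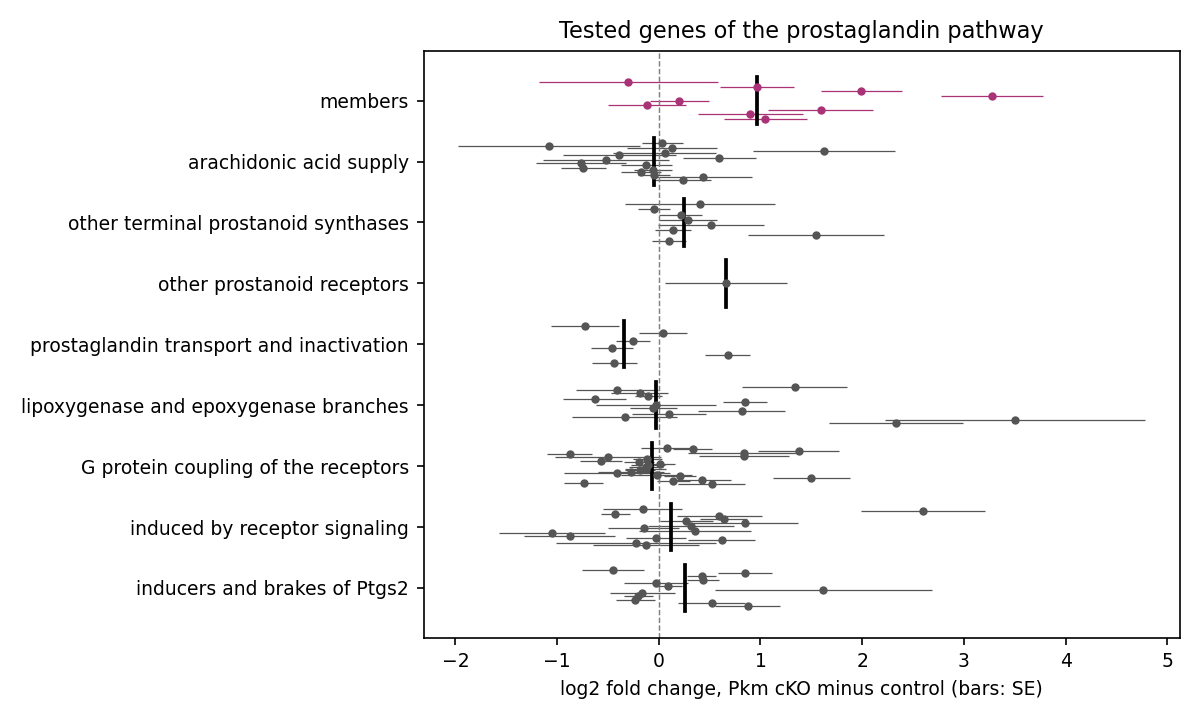
Log2 fold change (Pkm cKO minus control) of each tested gene with its SE, the 9 tested members in purple and the genes of 8 pathway lists in grey, with the median of each row as a black bar. The medians of the lists with more than 1 gene lie between -0.35 and 0.25, the 1 gene of the other receptors at 0.66 and the median of the members at 0.97. The members were chosen because Ptgfr was higher in this comparison, so nothing is read from this difference.

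The libraries also differed in markers of other cells. In bulk RNA, more cells of a type and more RNA of a gene per cell cannot be told apart. Macrophage and other immune markers, 10 genes, summed to 84.4, 86.9 and 77.3 CPM among controls and to 209, 130 and 218 CPM in cKO replicates 1 to 3. This is the order that Ptgfr followed among the knockout libraries, and 9 of the 10 markers were above 0 (median log2 fold change 1.24), with Csf1r, Laptm5 and Cd68 the most abundant. The mast cell list was dominated by Kit, which other cells also express, and its protease genes were near 0 in controls: Cma1 stood at 0.0545 to 0.311 CPM there and at 2.20, 1.40 and 12.2 CPM in the knockouts, and Mcpt4 was at 0 in 1 control. The skeletal muscle sum given above was also ordered like Ptgfr in the cKO group, with Myh3 at 0 in 1 control.

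Mural and smooth muscle markers, of cells known to express Ptgfr and Ptgis, summed to 592 to 713 CPM among controls. In cKO replicates 1 to 3 they summed to 521, 498 and 743 CPM, with 5 of 10 above 0. Mesenchymal and fibroblast markers summed to 20063 to 31708 CPM among controls and to 40597, 23555 and 18638 CPM in the knockouts, with 9 of 11 above 0 (median 0.60), and endothelial markers to 334 to 405 CPM and to 366, 330 and 622 CPM, with 6 of 8 above 0. In these 3 lists no marker was at 0 in any library, and the sums overlapped between the groups. Among the knockout libraries the mural and endothelial sums were also ordered like Ptgfr, and the mesenchymal sum was not. The mesenchymal sum was mostly Col1a1 and Col1a2, 72.1% to 94.2% of it in a library, and both overlapped between the groups. Of the 11 mesenchymal markers, 7 (Vim, Col3a1, Msx1, Barx1, Twist1, Prrx1 and Lum) were higher in every cKO library than in any control, as Ptgfr and Ptgis were. That held for 2 of the 10 mural, 0 of the 8 endothelial and 0 of the 9 dental epithelial markers. It also held for 7 of the 10 immune, 5 of the 5 mast cell, 6 of the 6 skeletal muscle and 1 of the 4 nerve markers. Over all tested genes this share was 11.2%. Lower in every cKO library than in any control were 6 dental epithelial, 2 mural and 1 nerve marker, beside 12.2% of all tested genes. Dental epithelial markers summed to 21285 to 34565 CPM among controls and 8777 to 14088 CPM in the knockouts, with 2 of 9 above 0. The enamel gene Amelx made up 40.2% to 53.9% of that sum in controls and 29.4%, 3.39% and 1.39% in cKO replicates 1 to 3, where Krt5 was the largest part. Nerve markers summed to 228 to 390 CPM and to 81.4 to 258 CPM, with Sox10 at 0 in 1 control. The part of these cells in the levels of Ptgfr, Ptgis, Ptger3, Ptgs1 and Hpgd was not tested.

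**Figure D4:**
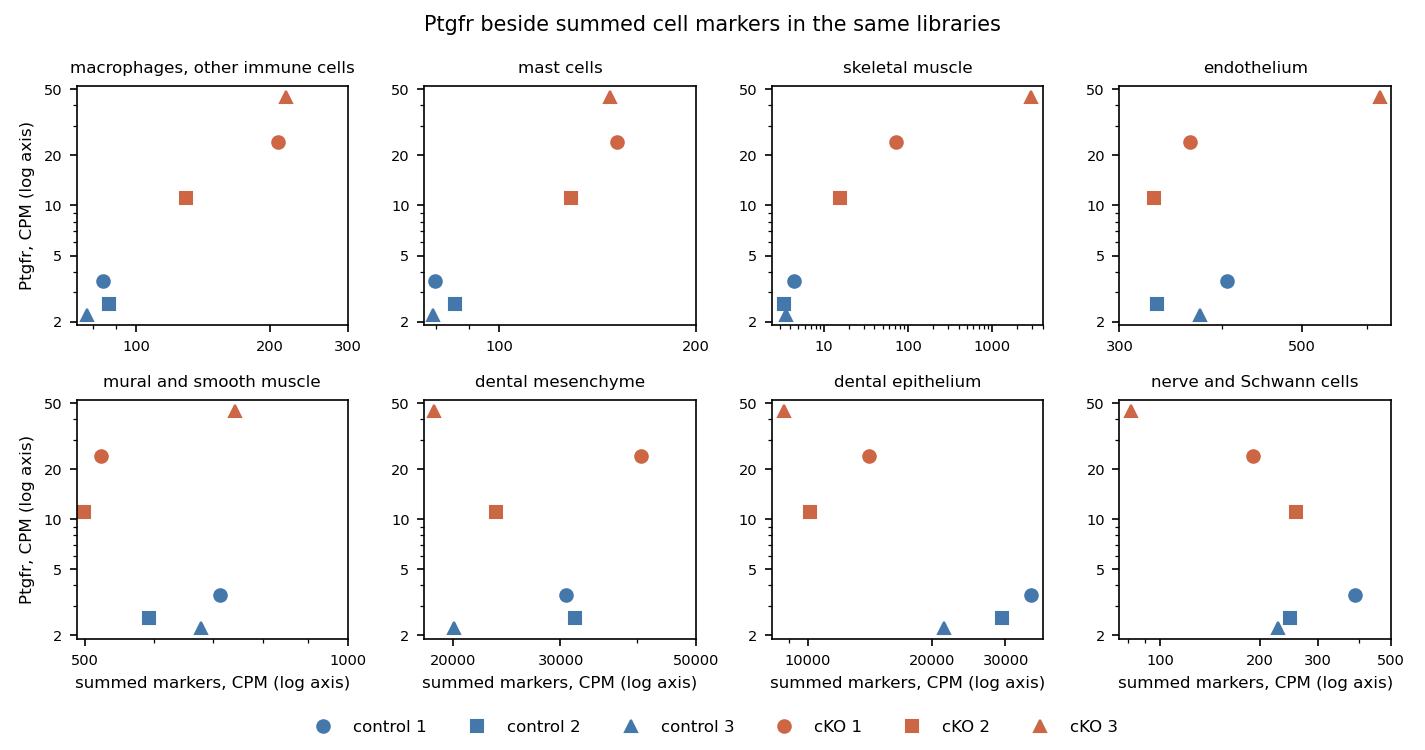
Ptgfr in CPM against the summed CPM of 8 lists of cell markers in the same 6 libraries, both on log axes, blue for control and orange for Pkm cKO. Control and knockout libraries separate along the immune, mast cell, skeletal muscle and dental epithelial axes and overlap along the endothelial, mural, mesenchymal and nerve axes.

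Over the 6 libraries, the log2 CPM of Ptgfr correlated with that of Ptgis at r = 0.95, and of Ptger3, Ptgs1 and Hpgd at r = 0.86 each. For Ptger1 r was 0.33, for Ptgs2 0.20, for Ptges 0.019 and for Ptger4 -0.38. These values describe 6 libraries that share the group difference, and no test was made. Among 11102 genes of at least 5 CPM, the 5 most like Ptgfr by Pearson r were Col20a1, a collagen gene (r = 0.999), the stromal chemokine gene Cxcl12, the galactosyltransferase gene B4galt5, the adhesion molecule gene Clmp and the axon guidance gene Slit3 (r = 0.988). In all 92 of these genes had r above 0.95. Col20a1 differed less between the groups than Ptgfr, with a log2 change of 0.68 (SE 0.194), and Slit3 had one of 1.44 (SE 0.258).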

How the data were processed

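RNA was sequenced from 3 control and 3 Pkm cKO samples, with 200 ng of total RNA per library per the labels' protocols. The authors deposited whole-number read counts per gene, which sum to 30588350 to 39415700 per library, so counting error was small except for genes with few reads. The tools fastp and HISAT2 and the build mm39 are named, per the submitters' processing notes, without versions, and no source used here names the counting program or its strand setting. Groups and replicate numbers come from the sample titles, and all per-sample columns were used.

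Genes were kept by filterByExpr, scaled by TMM and tested with edgeR 4.0.16 (glmQLFit, robust; R 4.3.3) in a two-sided test with Benjamini-Hochberg adjustment over 15930 genes. The SE was taken as log2 change over root F. Correlations were made on log2 CPM (prior count 2). Levels per kilobase used the longest coding transcript of GENCODE M21 (GRCm38). Alternatives were other scalings and filters, each library left out, a replicate block, DESeq2 1.42.0, limma-voom (limma 3.58.1), no robust estimation and coding lengths. The procedures were checked on counts simulated from the fitted dispersions. No simulated library stood apart as cKO replicate 3 did, so the check does not cover that difference. The members and all lists were chosen with earlier results of these data known. Named were all members and Pkm, up to 4 genes of lowest p per list, up to 3 markers of highest level per list or those at 0, and the 5 genes most like Ptgfr. Genes outside this rule were named after their values were seen. They include Egr1, the receptor and cytokine genes too low to test, and the mesenchymal markers Vim, Msx1, Barx1, Twist1, Prrx1 and Lum.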

Additional observations from a re-analysis of the deposited data

How the results depend on the processing

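The count of 88 genes over the whole table was 55 with DESeq2 size factors in edgeR, 2 without robust estimation, 518 without a filter, 2 with limma-voom and 1118 with DESeq2, and 0 to 640 when 1 library was left out. It was 0 without each of the 3 controls (1532 to 2495 genes at an unadjusted p under 0.05). The 1 called member became 0 with DESeq2 size factors in edgeR, without robust estimation and with limma-voom (5 at an unadjusted p under 0.05 in each), 2 without a filter and with DESeq2, and 0 to 3 when 1 library was left out. The 0 called genes of the pathway lists became 5 without a filter, 11 with DESeq2 and 0 to 7 when 1 library was left out. The log2 fold change of Ptgfr, 3.28, stayed between 2.68 and 3.65 when 1 library was left out. It was no longer called with DESeq2 size factors (3.28, edgeR adjusted p 0.0505), without robust estimation (3.28, edgeR adjusted p 0.0621) and with limma-voom (3.10, adjusted p 0.0882). Over its alternatives the adjusted p ran from 3.1e-11 with DESeq2 to 0.258 without control replicate 1. The cause was not tested.

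Signs turned only for Ptger4, Ptges, Tbxa2r and Ptgs2, whose SE was near the size of the log2 change or above it. With 1 library left out Ptger4 ran from -0.35 to 0.16, Ptges from -0.0065 to 0.52, Tbxa2r from -0.019 to 1.08 and Ptgs2 from -0.79 to 0.97. Ptgs2 was 0.0081 with limma-voom and 0.058 with the replicate block. Of the single-gene values under an alternative, Ptgfr left apart, 478 kept direction and side of the threshold, 36 came past it, 3 lost it (Pkm without each of the 3 controls) and 9 turned.

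With the replicate number as a block, edgeR called 708 genes, 2 members (Ptgfr and Ptgis) and 8 genes of the pathway lists, and Ptgfr was 3.07. The labels do not say that the numbers pair the samples, so the block was kept as an alternative. Deviations from the group mean correlated at r = 0.23, 0.015 and 0.22 for samples sharing numbers 1 to 3. For samples with different numbers r ran from -0.28 to 0.070. Samples 1 and 3 correlated best with their own number, and samples 2 did not. Deviations within a group of 3 depend on each other, so these values cannot decide whether the samples are paired. Genes with few reads (Ptgs2, Ptger2, Ptger3 and most of the further receptors) are limited by counting error.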

Other observations

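Lipoxygenases use the same arachidonic acid as cyclooxygenases, and some of their genes were highest in cKO replicate 3. Alox12b, needed for the skin barrier, stood at 0.0272 to 0.129 CPM among controls, at 0 and 0.0291 CPM in cKO replicates 1 and 2 and at 6.06 CPM in cKO replicate 3. Alox12e stood at 0.0272 to 0.285 CPM among controls and at 0.161, 0.843 and 5.29 CPM in cKO replicates 1 to 3 (log2 change 3.50 ± 1.28 SE, and 1.45 ± 0.953 without cKO replicate 3). Aloxe3, which acts with Alox12b in the skin barrier, stood at 1.03, 1.53 and 2.33 CPM among controls. Its cKO values were 2.26, 2.64 and 3.72 CPM. Others were lowest of the cKO libraries in replicate 3. Alox8 had at most 2 reads in a control and 8, 7 and 5 reads in cKO replicates 1 to 3. Alox15 stood at 1.61 to 3.73 CPM among controls and at 3.10, 1.95 and 0.919 CPM in cKO replicates 1 to 3. Alox12, the platelet-type enzyme gene, stood at 0.751 to 1.17 CPM among controls and at 1.20, 4.53 and 9.71 CPM in the knockouts, with a log2 change of 2.33 (SE 0.662, adjusted p by edgeR 0.128), and of 1.49 (SE 0.553) without cKO replicate 3. The phospholipase gene Pla2g4f had 0, 0 and 1 reads in controls and 3, 9 and 104 reads in cKO replicates 1 to 3. Alox12b, Alox8 and Pla2g4f, too low to test, and Aloxe3 and Alox15 were picked after their values were seen.

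In the same branch Ephx1, an epoxide hydrolase gene, stood at 17.1 to 22.7 CPM among controls and at 34.8, 46.6 and 29.8 CPM in the knockouts. Every cKO library was above every control (log2 change 0.85 ± 0.215 SE, adjusted p by edgeR 0.1000), and its highest library was cKO replicate 2, the lowest cKO library for Ptgfr. Ltc4s, the leukotriene C synthase gene of mast cells and macrophages, stood at 0.234 to 0.337 CPM among controls and 0.639 to 0.807 CPM in the knockouts (log2 change 1.33 ± 0.519 SE). Of the 13 tested genes of these branches, 0 passed edgeR's test and 4 had an unadjusted p under 0.05, with a median log2 fold change of -0.03.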
